A study of Mus musculus with 2 samples.

Results

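B-cells of peripheral blood were compared between mice of 36 weeks and mice of 77 weeks. The B-cells were the cells that the study's own annotation gave this type, and they numbered 174 in the 3 mice of 36 weeks and 150 in the 3 mice of 77 weeks, together 324 of the 600 B-cells of all ages and of the 981 cells with an annotation and a transcriptome, among 1055 cells in the count table. The study profiled blood of 11 male wildtype C57BL/6 J mice of 10, 36, 77 and 101 weeks by scM&T-seq, in which a transcriptome and a methylome come from 1 cell. Red blood cells were lysed and nucleated cells were sorted singly into plates. No group received a treatment, and age was the one stated difference between the groups. The 36-week mice, numbered 11, 14 and 15, were all 36.1 weeks old and gave 59, 54 and 61 B-cells. The 77-week mice, numbered 21, 22 and 23, were 77.4, 77 and 77 weeks old and gave 54, 44 and 52 B-cells. Mouse was the replicate, and the counts of the B-cells of a mouse were summed.

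B-cells recognise antigen through a membrane immunoglobulin whose heavy chain pairs with a kappa or a lambda light chain, and the Cd79a and Cd79b proteins pass its signal into the cell. They show peptides of what they take up on MHC class II, for which the invariant chain Cd74 and the protease cathepsin S prepare the groove. Most B-cells of the blood are resting naive cells, and ageing in the mouse is known for the accumulation of antigen-experienced and age-associated B-cells.

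The annotation was checked against marker genes. Cd79a was counted in 98.3% of the B-cells at 36 weeks and 99.3% at 77 weeks, Ms4a1 (CD20) in 94.8% and 92.7%, and Ighm, the constant region of IgM, in 100% and 99.3%. The 8 B-cell markers summed to 15501 to 17829 CPM (counts scaled to a common library total) over the 36-week mice and 15498 to 17062 CPM over the 77-week mice, so both ages had the markers at overlapping levels. Summed markers of T-cells reached 21.1 to 26.2 CPM at 36 weeks and 0.128 to 76.8 CPM at 77 weeks, nearly all of it Lck, a kinase of T-cell receptor signalling counted in 6 cells at each age, while Cd3d was at 0 in all 324 cells. Summed markers of monocytes and neutrophils lay between 1.27 and 2.13 CPM and between 1.71 and 3.01 CPM, those of NK cells reached 0.0461 and 0.0553 CPM at most, and those of platelets 0.173 and 30.8 CPM. Library totals per mouse ran from 12950993 to 21686142 counts, and single cells held 158739 to 831206 counts. The reads carry no molecular identifiers.

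At a false discovery rate of 10%, 3 of the 2514 genes counted in at least 25% of the 324 cells differed between the ages (0.119%, edgeR quasi-likelihood test with Benjamini-Hochberg adjustment). Gm42497 was higher at 77 weeks (0.0398% of tested genes), and Atg4d and Olfr672 were lower (0.0796%). The count moved with the method. DESeq2 called 51 genes, 23 higher and 28 lower, among them the class I gene H2-Q7 and the lambda constant region Iglc1. With log2(CPM + 1) averaged over the cells of each mouse, limma called 7. In edgeR 0 genes were called in the cells that the study classed as free of haemoglobin and 0 in the cells of lane 1 of the raw read files, with 135 and 185 at an unadjusted p under 0.05, and leaving out each mouse in turn gave 1 to 9. An unadjusted p under 0.05 was found for 167 genes (6.64%), 87 higher (3.46%) and 80 lower (3.18%) at 77 weeks. The CPM of the 3 mice of one age did not overlap those of the other for 293 genes (11.7%). Of these, 106 were higher (4.22%) and 187 lower (7.44%) at 77 weeks. These CPM were scaled by library total alone, without the TMM factors that entered the edgeR fold changes. The ribosomal gene Rps27, for example, had mean levels of 7134 CPM in the younger and 6738 CPM in the older mice. Its log2 fold change was -0.008. The split into higher and lower genes by overlap thus depends on this scaling, and it was not tested with TMM. Fold changes lay on both sides of 0, with a median of 0.01 on the log2 scale and 1276 genes above and 1238 below 0. Of the tested genes 1441 were protein-coding and 906 were processed pseudogenes, whose reads can be shared with their parent genes.

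**Figure D1:**
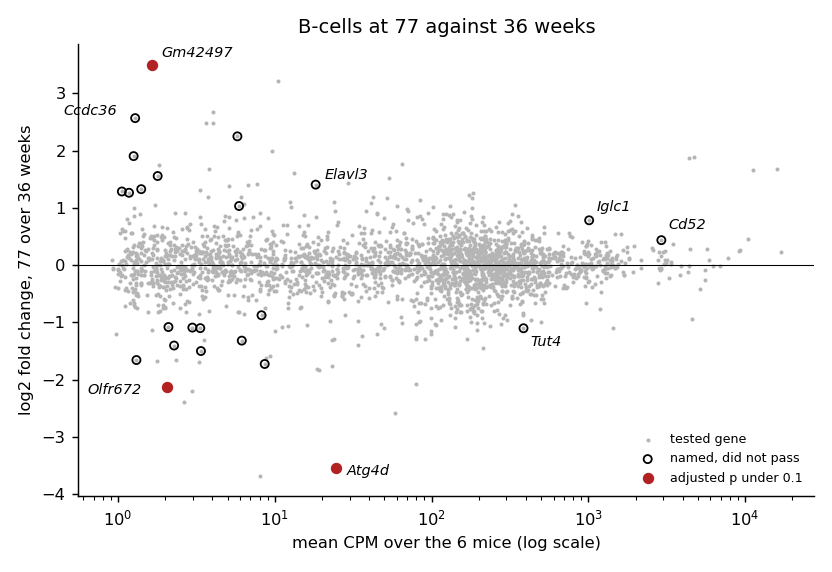
The log2 fold change of 77 over 36 weeks (vertical axis) is plotted against the mean CPM over the 6 mice (horizontal axis, log scale) for the 2514 tested genes. Red points are the 3 genes that passed the test and open circles the 21 other genes of the highest rank, most of which lie at low CPM.

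Gm42497 is an unspliced transcript model of a single exon on the minus strand of GRCm38 chromosome 5 (128239382 to 128241339), within an intron of Tmem132d on the same strand. It had 0.357, 0.288 and 0.184 CPM in the 36-week mice and 3.26, 2.86 and 2.95 in the 77-week mice. Every 77-week mouse stood above every 36-week mouse, and the log2 fold change was 3.50 (SE 0.27, edgeR adjusted p = 0.00389). The sums rest on few counts, 7, 5 and 4 at 36 weeks and 59, 37 and 46 at 77 weeks. These counts were spread over many cells, since 11.9, 9.26 and 6.56% of the B-cells of the 36-week mice and 68.5, 52.3 and 53.8% of those of the 77-week mice had at least 1.

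Olfr672, an olfactory receptor gene on chromosome 7 (104995760 to 105002029, minus strand), had 4.23, 3.51 and 2.35 CPM in the 36-week mice and 0.885, 0.695 and 0.577 in the 77-week mice. The 3 younger mice were all above the 3 older ones, with a log2 fold change of -2.13 (SE 0.28, edgeR adjusted p = 0.0597). A count was present in 81.4, 64.8 and 59% of the B-cells at 36 weeks and in 24.1, 18.2 and 13.5% at 77 weeks, so the share of cells with a count moved along with the level. It no longer passed when any one of mice 11, 14, 21, 22 or 23 was left out, whereas Gm42497 passed without each of the 6 mice in turn.

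Atg4d encodes a protease that trims the Atg8-family proteins of autophagosomes and lies on chromosome 9 (21265293 to 21277772, plus strand), where its exons overlap those of Kri1 on the other strand. It had 56.6, 43.5 and 35.7 CPM in the 36-week mice and 5.47, 3.86 and 1.73 in the 77-week mice, again without overlap, and its log2 fold change was -3.54 (SE 0.42, edgeR adjusted p = 0.0422). Unlike the 2 genes above, the share of cells with a count was alike at both ages, 30.5, 35.2 and 32.8% against 33.3, 40.9 and 32.7%. The cell with the most Atg4d counts gave 42.7, 48.9 and 51.4% of the sum of its mouse at 36 weeks and 74.7, 42 and 25.9% at 77 weeks, so a single cell gave at least 25.9% of every sum. When log2(CPM + 1) was averaged over the cells of a mouse, its difference was -0.16 and did not pass in limma. Atg4d no longer passed without mouse 14 or without mouse 22. Whether counting used the strand is not given in the sources used here, so reads of Atg4d and Kri1 may not be told apart.

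The mice of other ages did not follow the step from 36 to 77 weeks. In the 101-week mice 1, 2 and 3, Gm42497 had 0.286, 0.357 and 0.232 CPM and Olfr672 4.71, 4.7 and 3.91 CPM, all on the side of the 36-week mice. Atg4d was scattered at 101 weeks, with 12.1, 81.8 and 7.09 CPM. The pair of 10-week mice split. Mouse 12 had 0.735 CPM of Gm42497 and 3.88 of Olfr672, and mouse 24 had 2.34 and 0.3, so the 10-week mouse whose number begins like those of the 77-week mice lay nearer to the 77-week mice for both genes and the one whose number begins like those of the 36-week mice nearer to the 36-week mice.

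**Figure D2:**
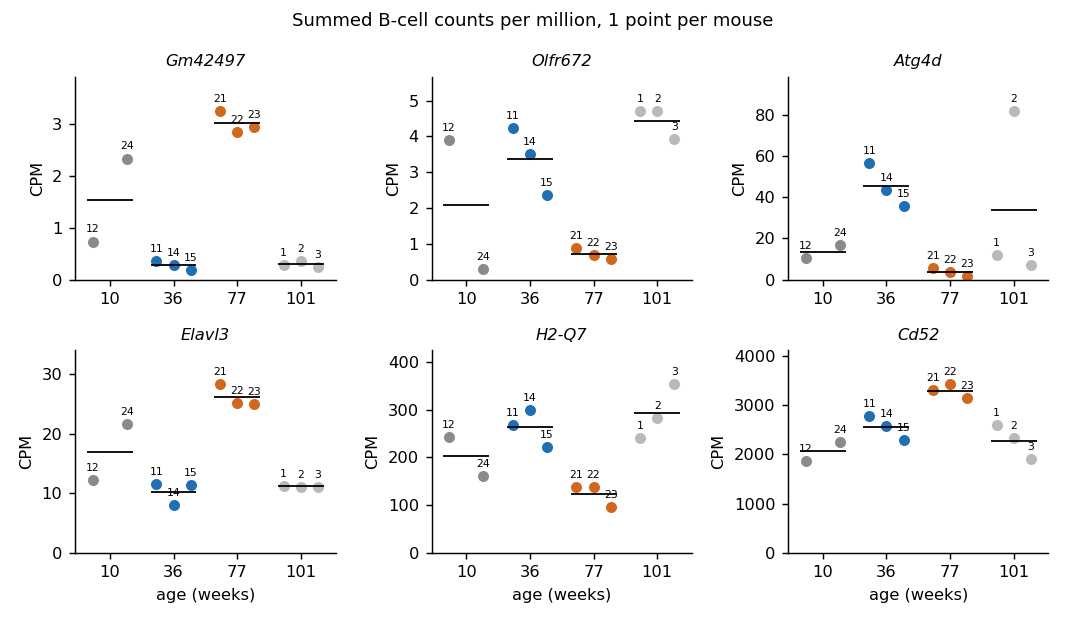
CPM of 6 genes (vertical axes, from 0) in the summed B-cells of each mouse, by age in weeks (horizontal axes); points are mice with their numbers and lines are means. For Gm42497, Olfr672, Elavl3 and H2-Q7 mouse 24 (10 weeks) lies between mouse 12 and the 77-week mice or beyond them, and the 101-week mice lie at or near the level of the 36-week mice.

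This split was followed over the 24 genes with the smallest p, 12 in each direction. All 36-week mice have numbers (11, 14 and 15) with the same first digit as mouse 12, and all 77-week mice (21, 22 and 23) share theirs with mouse 24, so that age and number could not be told apart in the comparison. In the 10-week B-cells, mouse 24 differed from mouse 12 in the direction of 77 against 36 weeks for 20 of the 24 genes (83.3%), 11 of the 12 higher and 9 of the 12 lower. Over all tested genes this held for 1373 of 2514 (54.6%). These counts concern the direction only. The Pearson correlation of the sizes of the 2 differences was 0.197 over the 24 genes and 0.047 over all tested genes. It was 0.444 over the 12 higher and -0.353 over the 12 lower genes. The 10-week mice entered neither the choice of the genes nor the fit. All 29 B-cells of mouse 12 were in lane 2 of the raw read files and all 52 of mouse 24 in lane 1, so that number and lane cannot be told apart in this pair, nor in a term estimated from it. With mice of 10 weeks added and the number series as a term, that term was estimated from mice 12 and 24 alone, and the difference of 77 and 36 weeks net of it no longer passed for any of the 3 genes. Gm42497 kept a positive value (1.76), Atg4d a negative one (-4.29), and Olfr672 turned to 1.46. What the numbers stand for, such as a litter, cage or collection day, is not given in the sources used here, and their part in the differences, and that of the lane in the 10-week pair, was not tested further.

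T-cells of the same 6 mice, 28, 29 and 23 cells at 36 weeks and 33, 38 and 33 at 77 weeks, gave a second reading from other cells of the same animals. In them Gm42497 had 0.249, 0.175 and 0.448 CPM at 36 weeks and 3.01, 2.99 and 2.6 CPM at 77 weeks, with a count in 10.7, 6.9 and 13% against 72.7, 65.8 and 75.8% of cells, and it passed the test there too (log2 fold change 3.25, edgeR adjusted p = 0.0612). The T-cell fit called 3 of the 2514 genes in all (0.119%), and the other 2, seen only after the fit, were the B-cell genes Cd79b and Ighd. Cd79b had 0, 0 and 0 CPM in the T-cells of the 36-week mice and 15.7, 17.5 and 18.3 at 77 weeks. Ighd had 0.083, 0 and 0 against 4.48, 18.3 and 14.5 CPM. Each of these genes was counted in 3.03, 2.63 and 3.03% of the T-cells of mice 21, 22 and 23, which is a single cell in each mouse. The T-cell sums at 77 weeks thus held counts of B-cell genes, and their part in the other values was not tested. Olfr672 had 3.57, 3.23 and 2.33 against 0.384, 0.465 and 0.78 CPM in T-cells (log2 fold change -2.44, edgeR adjusted p = 0.17). Elavl3 had 9.96, 7.33 and 10.2 against 24.8, 23.3 and 21.8 CPM in T-cells, and its B-cell values follow in the next paragraphs. Atg4d overlapped between the ages in T-cells, with 0.747, 27 and 45.5 against 2.11, 25.4 and 69.5 CPM. The difference between B-cells and T-cells in the change with age was tested with a term for cell type in edgeR. It passed for 2 of all 2514 genes (0.0796%), with 99 genes at an unadjusted p under 0.05. The 2 were Cd79b and Ighd, each counted in a single T-cell of each 77-week mouse. None of the 24 genes was among them, the smallest adjusted p being 0.98, and Iglc1, at 0 in the T-cell sums, could not be tested there. For Gm42497 this difference was 0.21 (SE 0.51), for Olfr672 0.34 (SE 0.42) and for Atg4d -3.94 (SE 2.65). A change particular to B-cells was not detectable for any of the 3 at this number of cells.

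**Figure D3:**
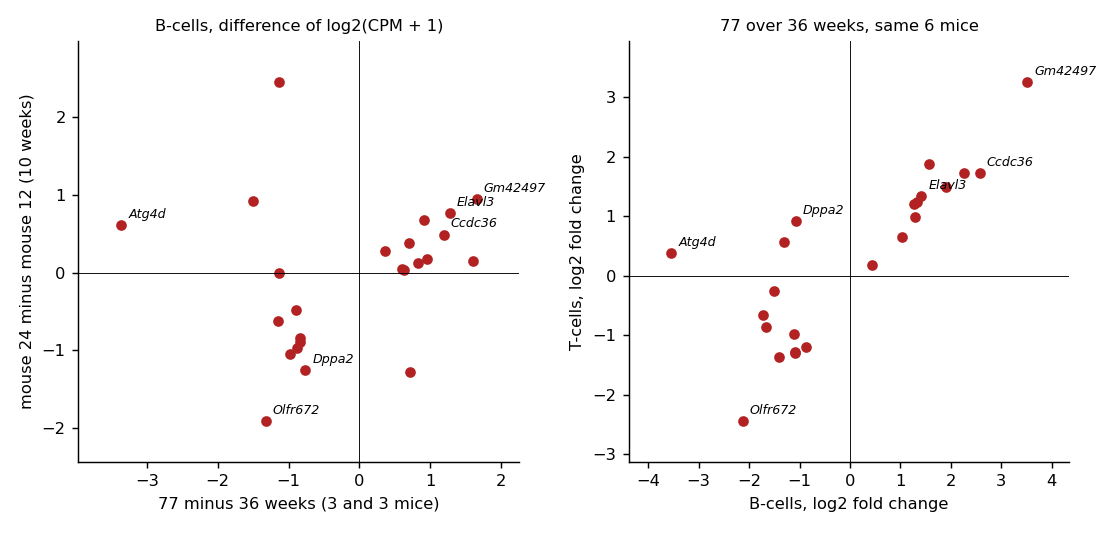
Left, the difference of mouse 24 and mouse 12 (10 weeks) against that of 77 and 36 weeks in B-cells, both as differences of log2(CPM + 1), for the 24 genes with the smallest p. Right, log2 fold changes of 77 over 36 weeks in T-cells against those in B-cells, for those of them with counts in T-cells. For Gm42497 and Olfr672 the differences on the 2 axes have the same sign in both panels, and for Atg4d they have opposite signs in both.

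Next in rank came 21 genes that did not pass in edgeR, and most of them were counted at a few CPM. DESeq2 called 19 of them and limma, on the means over the cells of each mouse, 4 (Ccdc36, Csf1r, Gm14439 and Mir99ahg). In edgeR Ccdc36 was called over all 11 mice and among protein-coding genes alone. With 1 mouse left out edgeR called 0 to 2 of them, and with the number series as a term it called Usp20 (log2 fold change -4.19). Elavl3, a neuronal RNA-binding protein, had 11.6, 8 and 11.3 CPM in the 36-week mice and 28.4, 25.2 and 25 in the 77-week mice and was counted in 96.3% of the B-cells (log2 fold change 1.41, edgeR adjusted p = 0.19). The 77-week mice were all above the 36-week mice. The 101-week mice had 11.3, 11.1 and 11.1 CPM. Ccdc36, a protein of meiotic recombination, had 0.408, 0.575 and 0.184 against 1.71, 2.86 and 1.99 CPM (edgeR adjusted p = 0.153), and Nfib, a transcription factor, 0.816, 0.863 and 1.11 against 2.76, 3.09 and 2.11 CPM. Vcam1, an adhesion molecule best known from endothelium, had 0.612, 0.69 and 0.599 against 1.77, 1.47 and 1.22 CPM. Csf1r, the receptor of macrophage colony-stimulating factor and a monocyte marker, had 0.306, 0.518 and 0.784 against 1.6, 2.16 and 2.18 CPM, whereas the other monocyte and neutrophil markers were too low for the test. Of these, Fcgr3 lay in the other direction, with 0.971 CPM over the cells of 36 weeks and 0.493 at 77 weeks. Cd14 had 0.017 and 0 CPM, and 3 of the 6 were at 0 in all 6 mice. Like Atg4d, Csf1r and Vcam1 have exons that overlap those of a gene on the other strand (Hmgxb3 and Gm43109). Elavl3 exons overlap those of Gm49318 on the same strand. Gm26809, Gm13425 and Cd52, given below, overlap exons of Gm20186, Prdm12 and Crybg2 on the other strand. Reads of the genes in each pair may not be told apart.

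Of the transcripts without a known function, 8030445P17Rik had 3.77, 4.6 and 3.64 against 8.02, 7.49 and 8.01 CPM and Gm37895 4.64, 5.18 and 4.1 against 2.27, 1.93 and 1.99 CPM. Both lie within introns of Adgrb3 on chromosome 1 on its strand, and their differences had opposite directions. The lower genes also held the microRNA host Mir99ahg with 1.78, 2.36 and 1.89 against 0.553, 0.772 and 0.513 CPM, Gm26809 with 19.1, 14.2 and 7.1 against 4.2, 3.55 and 3.65 CPM and Gm13425 with 3.98, 3.51 and 4.84 against 2.27, 1.7 and 1.6 CPM. Dppa2, a gene of the early embryo, had 2.85, 3.16 and 2.67 against 1.6, 1.08 and 1.22 CPM and the deubiquitinase Usp20 10.2, 11.1 and 5.49 against 3.59, 3.09 and 3.46 CPM, although a single cell gave 68.7, 73.1 and 31.9% of the Usp20 counts of the 36-week mice. Tut4, which adds uridines to RNA ends, was the best covered of the lower genes with 498, 644 and 459 CPM in the 36-week mice and 268, 202 and 244 in the 77-week mice (log2 fold change -1.10, edgeR adjusted p = 0.223), and its mice did not overlap. Among processed pseudogenes of this rank, Gm3940 and Gm2189 had higher and Gm13653, Gm14439 and Gm2367 lower CPM at 77 weeks. Gm3940 had 2.75, 2.01 and 1.57 against 5.97, 5.64 and 16.7 CPM, of which a single cell gave 64.8, 57.5 and 52.1% at 77 weeks.

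Cd52, a small surface glycoprotein of lymphocytes counted in 99.7% of the B-cells, had 2776, 2584 and 2299 CPM in the 36-week mice and 3299, 3427 and 3144 in the 77-week mice. It was higher in all 3 older mice by a log2 fold change of 0.44 (SE 0.11), and its edgeR adjusted p was 0.37. At 10 weeks its level was 1857 and 2261 CPM, and at 101 weeks 2594, 2328 and 1909 CPM, so the levels did not follow the order of the ages.

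Of the 12 immunoglobulin constant region genes, 6 were counted in enough cells to be tested. None passed in edgeR, and 2 of the 6 had an unadjusted p under 0.05, against 6.64% of all tested genes. DESeq2 called Iglc1 alone, against 51 of all 2511 genes, and limma none, against 7 of all 2514. Iglc1, the constant region of lambda chain 1, had 803, 689.7 and 795 CPM in the 36-week mice and 1546, 1124 and 1113 in the 77-week mice (log2 fold change 0.78, SE 0.17, edgeR adjusted p = 0.261). The older mice were all above the younger ones, while the 10-week mice had 757 and 312 CPM. Igkc, the kappa constant region, had 9844, 7878 and 7789.6 against 10659, 9401 and 8869 CPM. The lambda constant regions resemble one another, which matters for how reads are split between them. The first 60 bases from the shared start of each coding exon are given from the GENCODE transcripts (GRCm38, chromosome 16, minus strand), with capitals at the bases that differ from Iglc1.
Iglc1: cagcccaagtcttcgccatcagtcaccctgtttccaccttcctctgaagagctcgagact
Iglc2: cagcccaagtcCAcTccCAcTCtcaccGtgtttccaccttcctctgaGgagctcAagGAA
Iglc3: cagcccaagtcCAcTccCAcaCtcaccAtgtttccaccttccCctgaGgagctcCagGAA
These stretches lie at chr16:19062010-19062069, chr16:19198791-19198850 and chr16:19065620-19065679. Iglc2 and Iglc3 each differ from Iglc1 at 13 of the 60 bases. From each other they differ at 11 of 300 bases, so that counts of Iglc2 and Iglc3 are less certain than those of Iglc1.

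A cell was taken as a lambda B-cell where its counts of Iglc1, Iglc2 and Iglc3 together exceeded those of Igkc. There were 11, 14 and 13 such cells in the 36-week mice and 8, 9 and 13 in the 77-week mice, or 18.6, 25.9 and 21.3% against 14.8, 20.5 and 25% of B-cells. The groups overlapped, with means of 21.96% ± 3.68 and 20.1% ± 5.10 (SD, n = 3 mice each, exact permutation p = 0.6, two-sided). With a stricter rule, at least 10 light chain counts and over 80% of them lambda, the means were 5.24% ± 2.03 and 5.43% ± 1.58. The share thus depended on the rule, and most cells with more lambda than kappa counts did not meet the stricter one. Cells with mostly Iglc1 among the lambda counts numbered 3, 2 and 2 at 36 weeks and 3, 2 and 3 at 77 weeks, and gave 57.9, 40.4 and 44.6% of the Iglc1 counts of their mice against 46.8, 54.1 and 51.1%. The level of Iglc1 in a mouse thus rested to a large part on 2 or 3 cells. No cell of the 6 mice had more counts of IgG, IgA or IgE constant regions than of Ighm and Ighd.

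Over 18 lists of genes fitting B-cells and ageing, 311 genes were tested. None passed in edgeR, and 19 had an unadjusted p under 0.05, against 6.64% of all tested genes. DESeq2 called 2 of the 311 (Iglc1 and H2-Q7), against 51 of all 2511 genes, and limma 0, against 7 of all 2514. The values that follow are therefore given as levels, beside a median log2 fold change of 0.01 over all tested genes. Of the 28 genes of the B-cell receptor and its signalling, 17 were tested, with 8 above 0 and 9 below it, a median log2 fold change of -0.12 and a range from -0.58 to 0.65. Cd79a, the signalling chain of the receptor, had 2932, 2777 and 2994 against 3264, 3498 and 3078 CPM (log2 fold change 0.24). Cd72, an inhibitory receptor of B-cells, had 301, 379.9 and 300.3 against 468, 414 and 592 CPM. In both the older mice were above the younger mice without overlap, and both changed direction with the number series as a term (-0.24 and -0.12). Of the 17 genes 4 were without overlap, against 11.7% of all tested genes, 3 of them higher and 1 lower. The lower one was Btk, the Bruton tyrosine kinase, with mean levels of 313 against 210.0 CPM (log2 fold change -0.50).

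Of 22 B-cell transcription factors, 14 were tested, with 5 above 0 and 9 below it, a median log2 fold change of -0.05 and a range from -0.74 to 0.87. Klf2, which keeps lymphocytes quiescent and circulating, had 478, 380.1 and 395 against 572, 770.4 and 547 CPM and Pou2af1, a coactivator of immunoglobulin transcription, 94.5, 147 and 148 against 267, 226 and 191 CPM. Pax5, which holds B-cell identity, had 617, 534 and 628 against 461, 415 and 446 CPM (log2 fold change -0.37). Without overlap between the ages were 6 of the 14, against 11.7% of all tested genes. Klf2 and Pou2af1 were the 2 higher at 77 weeks, and Pax5, Bach2, Pou2f2 and Tcf4 the 4 lower, and none of the 6 passed the test. Bach2, which restrains plasma cell differentiation, had mean levels of 235 against 135 CPM (log2 fold change -0.74), Pou2f2, the octamer-binding factor Oct2, 460.4 against 336 CPM (-0.38) and Tcf4, an E protein, 435 against 296 CPM (-0.50). With the number series as a term, Klf2 (-0.75) and Pax5 (0.53) changed direction. Of 24 receptors of homing, adhesion and survival, 12 were tested, with 5 above 0 and 7 below it, a median log2 fold change of -0.25 and a range from -0.56 to 0.59, and 1 of them did not overlap between the ages, against 11.7% of all tested genes.

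All 11 genes of MHC class II presentation were tested, with 6 above 0 and 5 below it, a median log2 fold change of 0.05 and a range from -0.46 to 0.40. The invariant chain Cd74 had 16726, 15104 and 16152 CPM in the 36-week mice and 18499, 16973 and 18118 in the 77-week mice, a log2 fold change of 0.22 (SE 0.09), and Ctss, cathepsin S, had 1237, 1131 and 836 against 1207, 1414 and 1384 CPM. The values of Cd74 did not overlap and those of Ctss did, and both genes changed direction with the number series as a term (-0.45 and -0.47). Of the 11 genes 3 were without overlap, against 11.7% of all tested genes, and they lay in both directions. H2-DMb2, a chain of the peptide-loading chaperone H2-M, was higher at 77 weeks like Cd74, with mean levels of 1093 against 1244 CPM, and Ciita, the transactivator of class II genes, was lower, with 837 against 609 CPM (log2 fold change -0.40). Of 20 genes of MHC class I and the immunoproteasome, 15 were tested, with 9 above 0 and 6 below it, a median log2 fold change of 0.08 and a range from -1.02 to 0.32. H2-D1, a classical class I heavy chain, had 2628, 2132 and 2428 against 2547, 2885 and 2821 CPM. The lowest value of the list belonged to H2-Q7, which encodes the non-classical class I molecule Qa-2 and had 269, 299 and 222 CPM in the 36-week mice and 138, 138 and 96.3 in the 77-week mice. Its level was lower in each older mouse (log2 fold change -1.02, SE 0.28, edgeR adjusted p = 0.423). The 101-week mice had 241, 283 and 354 CPM, and the 10-week mice 243 (mouse 12) and 161 (mouse 24), the latter between the 2 groups. H2-Q7 has near-identical neighbours in the class I cluster, so its counts can be shared with them.

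Of 37 genes of the interferon response, 10 were tested, with 2 above 0 and 8 below it, a median log2 fold change of -0.22 and a range from -0.80 to 0.22, and none passed. Ifi27l2a had 513, 259 and 212 against 152, 192 and 181 CPM and Ifi203, a nucleic acid sensor of the interferon-induced family, 632, 696 and 501 against 513, 394 and 314 CPM. The Ifi27l2a mice did not overlap but the 10-week mice were higher than most, with 557 and 319.9 CPM. The list of immediate early genes, which respond within minutes to activation and to handling of cells, also held genes of other kinds, such as Tsc22d3 and Txnip. Of its 30 genes 16 were tested, with 7 above 0 and 9 below it, a median log2 fold change of -0.02 and a range from -0.54 to 0.75. Cd69, an early activation antigen, had 447, 684 and 465 against 662, 1021 and 573 CPM and Tsc22d3, a glucocorticoid-induced gene, 1401, 1623 and 1055 against 1521, 2313 and 1818 CPM, both with overlap. Of 20 heat shock proteins and chaperones, 10 were tested, with 9 above 0 and 1 below it, a median log2 fold change of 0.15 and a range from -0.14 to 0.47. Hsp90aa1 had 362, 340.0 and 328 against 391, 455 and 466 CPM and was the 1 member of 10 without overlap, against 11.7% of all tested genes.

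Few genes of antigen-experienced B-cells were counted in enough cells. Of 25 genes of age-associated, B1 and memory B-cells, 6 were tested, with 4 above 0 and 2 below it, a median log2 fold change of 0.43 and a range from -0.31 to 1.39, and none was without overlap. Cd80, a costimulatory ligand of memory B-cells, had 3.98, 2.82 and 1.98 against 10.5, 3.17 and 8.14 CPM. Its mice overlapped, and a single cell gave 79.9, 56.1 and 59.1% of the counts of the 77-week mice. Of 15 genes of plasma cells and secretion 5 were tested, of 11 genes of transitional B-cells 2, and of 22 genes of proliferation 3, with medians of 0.02, 0.21 and 0.42.

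The 79 cytosolic ribosomal proteins were all tested and lay close to 0, 39 above and 40 below it, between -0.27 and 0.33 on the log2 scale. None passed and none had an unadjusted p under 0.05, against 6.64% of all tested genes, while DESeq2 and limma called 0 of them. Of 80 nuclear genes of the respiratory chain 50 were tested, with 34 above 0 and 16 below it, a median log2 fold change of 0.08 and a range from -0.26 to 0.73, and 5 were higher at 77 weeks without overlap, against 4.22% of all tested genes. Atp5f1, a subunit of ATP synthase, had 259, 189.8 and 265 against 417, 372 and 351 CPM and Cycs, cytochrome c, 114, 94 and 79.6 against 137, 125 and 161 CPM. The 15 mitochondrial genes had 7 above 0 and 8 below it, a median log2 fold change of -0.11 and a range from -1.10 to 0.50. Among them mt-Rnr1, the small ribosomal RNA of mitochondria, had 801, 2512 and 2637 against 903, 1067 and 753 CPM and mt-Nd1, a subunit of the first respiratory complex, 2536, 2708 and 1797 against 2852, 2621 and 2763 CPM. Mouse 11 had the low mt-Rnr1 level of the 77-week mice while mice 14 and 15 stood above them. Without mouse 11, edgeR called mt-Rnr1 (log2 fold change -1.50, edgeR adjusted p = 0.0884). The 30 genes of the actin cytoskeleton had 20 above 0 and 10 below it, a median log2 fold change of 0.11 and a range from -0.52 to 0.51, with 4 at an unadjusted p under 0.05, all higher at 77 weeks, against 3.46% of all tested genes in that direction. Pfn1, profilin, had 1126, 1251 and 1030.2 against 1306, 1605 and 1372 CPM without overlap, and Tmsb4x, which binds actin monomers, 12909.8, 7714 and 6922 against 11637, 12244 and 11595 CPM with overlap. Of 31 proteasome genes 11 were tested, with 7 above 0 and 4 below it, a median log2 fold change of 0.06 and a range from -0.38 to 0.40.

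**Figure D4:**
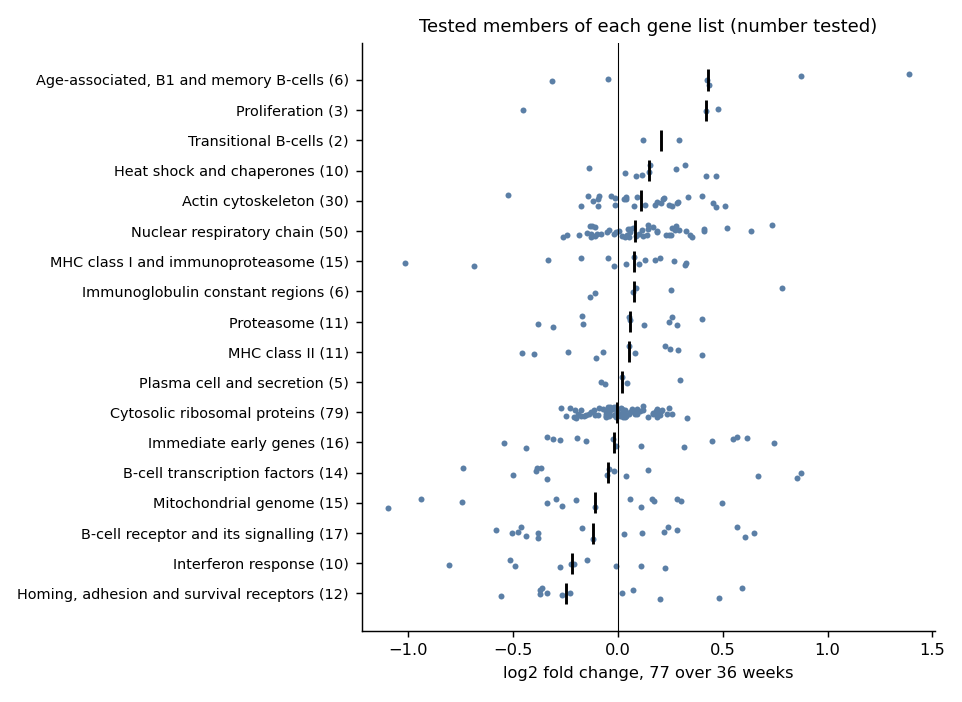
Log2 fold changes of 77 over 36 weeks (horizontal axis) of the tested members of 18 gene lists (rows, number tested in parentheses); points are genes and vertical bars are medians. No point passed the test, and the ribosomal proteins lie between -0.27 and 0.33.

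Haemoglobin genes served as a measure of red cell RNA in the B-cells. The 4 haemoglobin genes took 0.651, 0.858 and 2.96% of the counts of a B-cell on average in mice 11, 14 and 15 and 2.01, 4.88 and 3.51% in mice 21, 22 and 23. The means were 1.49% ± 1.28 and 3.46% ± 1.43 (SD, n = 3 mice each, exact permutation p = 0.2, two-sided, where 0.1 is the smallest possible). Counted by cells, the order was the other way round. Cells with at least 20 haemoglobin counts made up 28.8, 64.8 and 67.2% at 36 weeks and 16.7, 52.3 and 19.2% at 77 weeks (means 53.6% ± 21.5 and 29.4% ± 19.9, exact permutation p = 0.2), and in mouse 23 the median such cell held 29786.5 haemoglobin counts, against 238 to 386 in the other mice. Hba-a1 had 2765, 2542 and 10960 against 9584, 21998 and 19548 CPM and Hbb-bs 4495, 3063 and 15476 against 13276, 31484 and 27609 CPM. A single cell gave 48.9, 63.6 and 29.2% of the Hba-a1 counts of the 36-week mice and 46.1, 21.9 and 28.5% of those of the 77-week mice. For Hbb-bs it gave 58.2, 76.3 and 29.5% against 46.2, 22.7 and 29.3%. The 4 tested markers of red cells had log2 fold changes between 1.67 and 1.89. None passed the test over the 6 mice by edgeR, DESeq2 or limma, and 0 had an unadjusted p under 0.05. Without mouse 15, the 36-week mouse with the most haemoglobin, edgeR called 3 of the 4, with log2 fold changes of 3.56 for Hba-a2, 3.53 for Hbb-bt and 2.82 for Hba-a1. In the cells that the study had classed as free of this contamination, 37, 15 and 14 cells against 35, 20 and 36, the fold changes of the 3 called genes kept their directions at 2.93 for Gm42497, -2.49 for Atg4d and -2.31 for Olfr672, none of them past the threshold. The part of red cell RNA in the differences was not tested beyond these values.

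The number of genes per B-cell was compared at equal depth, with 150000 counts drawn at random in each cell. It was 1908, 2118 and 1903 in the 36-week mice and 1858, 2115 and 1780.1 in the 77-week mice. The means were 1976 ± 123 and 1918 ± 175 genes (SD, n = 3 mice each, exact permutation p = 0.5, two-sided), a difference smaller than the spread between mice of an age. Mice 14 and 22 had the most genes at their ages. Dissimilarity between the B-cells of a mouse, 1 minus the mean Pearson correlation of their expression over pairs of cells, was 0.628, 0.62 and 0.641 against 0.638, 0.614 and 0.648. Its means of 0.630 ± 0.0103 and 0.633 ± 0.0174 (exact permutation p = 0.8, two-sided) overlapped, so B-cells of the older mice were not detectably more heterogeneous.

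**Figure D5:**
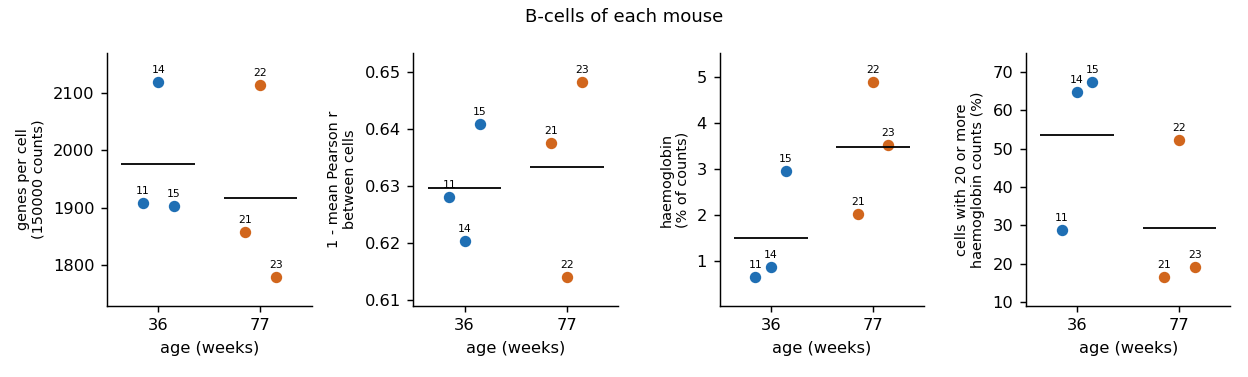
Genes per B-cell after a draw of 150000 counts, dissimilarity between B-cells, mean haemoglobin share of counts and share of cells with at least 20 haemoglobin counts (vertical axes, which do not start at 0) at 36 and 77 weeks; points are mice with their numbers and lines are means. The 3 mice of each age overlap those of the other in every panel.

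The names of the raw read files place the cells in 2 lanes. Lane 2 held all B-cells of mice 11 and 21 and 39 of the 54 of mouse 14, and lane 1 held the others. Within lane 1, with mice 14 and 15 against mice 22 and 23, the log2 fold changes were 3.56 for Gm42497, -3.05 for Atg4d and -2.10 for Olfr672, with no gene past the threshold in edgeR and 185 genes at an unadjusted p under 0.05. Lane 2 held the B-cells of 2 mice of 36 weeks and 1 of 77 weeks and was not tested alone.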

How the data were processed

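Counts per gene and cell were used as deposited by the authors, who aligned trimmed reads to GRCm38 with STAR and counted them with featureCounts, and no normalization had been applied. The values checked as whole numbers. The submitters' notes name Trim Galore 0.6.7. Cell type, mouse, age and haemoglobin class came from the study's supplementary cell list and the lane from the names of the raw read files, since the 2 deposited samples are 1 labelled group and do not separate ages. No cell name was repeated (0), and no doublet caller was run on the singly sorted cells. Counts were summed per mouse over B-cells. Genes counted in at least 25% of cells were tested in edgeR 4.0.16 (R 4.3.3; TMM, robust quasi-likelihood, Benjamini-Hochberg adjusted p under 0.1), and all 38788 genes of the table matched GENCODE annotation. In simulations of this comparison with 200 changed genes among 2514, 23.5% of genes changed by a log2 fold of 1 and 90.5% of those changed by 2 were recovered.

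Per-mouse measures were compared by exact permutation over 20 splits. Dissimilarity used 2494 genes. The members, gene lists and tests were chosen with earlier results of these data known. In each direction 12 genes were named by rank of p and, of each list, called members, the member with the highest mean CPM and the 2 with the smallest p. Of the latter, those with an unadjusted p of 0.1 or more are given only within their lists, a choice made after values were seen, and genes named for overlap of position, the neighbours of Iglc1 and the markers came on top. Some genes that these rules pick are not reported here. Cells are not replicates, and p-values measure the spread between 3 mice an age. Alternatives were DESeq2 1.42.0, limma 3.58.1, other filters, covariates, lanes and cells, and each mouse left out. Columns of DNA methylation age and the authors' own tests were not used here.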

Additional observations from a re-analysis of the deposited data

How the results depend on the processing

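The count of 3 genes by edgeR was 3 with DESeq2 size factors, without the haemoglobin genes and with the share of lane 2 cells as a covariate. It was 2 over all 11 mice and among protein-coding genes alone. DESeq2 called 51 genes (23 higher and 28 lower) and limma, on the means over the cells of each mouse, 7. The edgeR count was 1 with the haemoglobin class or the genes detected per cell as covariate and with cells thinned to 150000 counts. It was 0 with no filter beyond 10 counts (633 of 16972 genes at an unadjusted p under 0.05), 0 in the cells of haemoglobin class 0 (135) and 0 in lane 1 (185). Leaving out each mouse in turn gave 1 to 9 genes, with 7 without mouse 11, 1 without mouse 14, 9 without mouse 15 and 1 without mouse 22. With the number series as a term, which was added after the data were seen, as was the lane covariate, 6 genes were called, none of them among the 3. In that setting 16 of 47 followed genes changed direction, with log2 fold changes of 1.46 for Olfr672, 0.12 for Gm37895, 0.22 for Gm14439, 0.77 for Dppa2, 0.060 for Gm13425, 0.029 for Gm2367, -0.24 for Cd79a, -0.12 for Cd72, -0.75 for Klf2, -0.45 for Cd74, -0.47 for Ctss, -0.49 for H2-D1, 0.0097 for Ifi203, -0.19 for Tsc22d3, -1.21 for Cd80 and 0.53 for Pax5. Other reversals were -0.0030 for Cd79a in lane 1, 0.22 for Ifi203 and -0.033 for Cd69 in cells of haemoglobin class 0, and -1.42 for Hbb-bs and -1.38 for Hba-a1 with limma. Gm42497 lost its call with no filter, in class 0 cells, in lane 1 and with the number series. Atg4d and Olfr672 lost theirs there too, over all 11 mice, with the haemoglobin class and with the genes detected per cell as covariate and with thinned cells. In these last 4 settings, in this order, the log2 fold changes were -3.54, -3.61, -3.51 and -3.21 for Atg4d. For Olfr672 they were -2.13, -2.29, -2.10 and -2.49. Atg4d also lost its call among protein-coding genes and with limma (-0.16). The cause of these changes was not tested.

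Leaving out each mouse in turn moved the difference in genes per cell from -157.4 to 12.2, in dissimilarity from -0.00387 to 0.0132 and in lambda B-cells from -4.33 to 0.767 percentage points, and turned each of the 3 (genes per cell and dissimilarity without mouse 14 or 23, lambda without mouse 14 or 21). The difference in haemoglobin share lay between 1.27 and 2.71 percentage points. Without mouse 15, 3 haemoglobin genes were among those called. The stricter lambda rule gave 0.192 and the share of cells with at least 20 haemoglobin counts -24.2 percentage points. No paired analysis was possible because the 2 ages are different animals and the labels give them no shared replicate numbers. With 3 mice an age, exact permutation p-values cannot go below 0.1, and intervals from counts would cover counting error only. Age, mouse number and any undocumented difference between the mice cannot be told apart.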
